A study of Mus musculus with 4 samples.

Results

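Genes of the pre-mRNA splicing machinery, of the heterogeneous nuclear ribonucleoproteins (hnRNPs) and of the DEAD-box RNA helicases were examined for sites bound by PHF2, a histone demethylase family protein with a PHD finger, in mouse muscle. The members were all protein-coding RefSeq genes of GRCm38.p6, the assembly behind mm10, whose symbol starts with Hnrnp, Srsf, Sf3a, Sf3b, Prpf, Snrnp, Snrp or Ddx. This gave 110 of 21883 protein-coding genes: 37 Ddx, 21 Hnrnp, 13 Prpf, 12 Snrp, 11 Srsf, 7 Snrnp, 6 Sf3b and 3 Sf3a genes. The rule itself reads only symbols and gene types. The symbols do not all stand for spliceosome proteins: many DEAD-box helicases act in ribosome production, translation or RNA sensing, and Hnrnpa1l2-ps2 is listed as protein-coding although its name marks a pseudogene.

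The data were CUT&RUN peak lists, in which an antibody guides a nuclease that releases the DNA near its target, made from gastrocnemius, a calf muscle, of male C57BL/6 mice aged 4 weeks. Control muscle (Ctrl) was Phf2 flox/flox;Acta1 Cre- and knockout muscle (KO) was Phf2 flox/flox;Acta1 Cre+, so both carried the floxed alleles and differed by the Cre, whose Acta1 promoter is active in muscle fibres. Both genotypes had a PHF2 library and an IgG library, the latter showing what an antibody without a target releases, which made 4 groups of 1 library each. Whether animals were pooled is not given in the sources used here. Whole muscle also holds nuclei of vessels, stem cells and connective tissue, in which this Cre is not expected to act, and a peak from a fibre nucleus cannot be told apart from a peak from another nucleus.

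Splicing removes introns from pre-mRNA in the spliceosome, which is assembled from small nuclear ribonucleoproteins (snRNPs). A ring of Sm proteins (most Snrp genes) sits on the snRNAs, and the other Snrp genes encode proteins of the U1 and U2 snRNPs. The SF3a and SF3b complexes place the U2 snRNP on the branch site. Many Prpf and Snrnp proteins serve the U1, U4/U6.U5 or U11/U12 particles. SR proteins (Srsf genes) and hnRNPs bind the transcript and favour or oppose the use of single exons. DEAD-box helicases remodel RNA and RNA-protein complexes at these and at later steps.

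The PHF2 lists held 1621 peaks in Ctrl and 161 in KO, and the IgG lists 77 in Ctrl and 152 in KO. The fold enrichment of a peak is the authors' own value: the summit height relative to the background that the peak caller assumed there. Tags are the whole numbers of sequenced fragments at the summit, recovered from that fold and the authors' p, with exact Poisson 95% intervals for counting error only. The median was 15 tags in both PHF2 lists. Phf2 itself had no peak in either PHF2 list and 1 in the KO IgG list, and peak lists do not show whether the gene was deleted. With 1 library a group there was no replicate and no test across samples, so every comparison describes these libraries. A peak that was not called is not a measured absence of the protein.

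In Ctrl muscle, 20 of the 110 members had a PHF2 peak within 1 kb of either end of the gene (18.2%, Wilson 95% interval 12.1 to 26.4). Over all protein-coding genes the share was 5.60% (1225 of 21883). The families differed in their counts. The hnRNP genes held 10 of the 20, with 10 of 21 genes at a peak (47.6%, 28.3 to 67.6), while the other 89 members held 10 (11.2%, 6.22 to 19.5). The Srsf genes had 2 of 11 (18.2%), the Sf3b genes 1 of 6, the Prpf genes 2 of 13 (15.4%), the Ddx genes 4 of 37 (10.8%, 4.29 to 24.7) and the Snrp genes 1 of 12 (8.33%). The 3 Sf3a and 7 Snrnp genes had 0, and counts of 0 among so few genes allow shares of up to 100% and 42.9%. A further 4 members had a Ctrl PHF2 peak inside the gene only, beyond 1 kb from both ends (3.64%, against 1.28% of all protein-coding genes): Hnrnpdl, Hnrnpf, Hnrnpu and Srsf1. Counting both kinds, 13 of 21 hnRNP genes (61.9%, 40.9 to 79.2) and 24 of 110 members (21.8%, 15.1 to 30.4) held a peak, against 6.88% of all protein-coding genes.

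**Figure D1:**
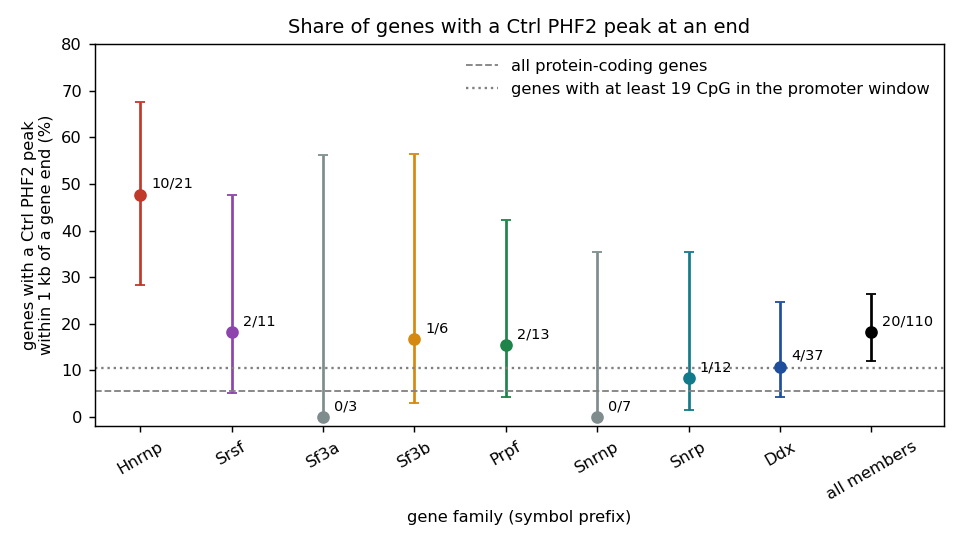
Share of genes with a Ctrl PHF2 peak within 1 kb of either gene end (vertical axis, percent) for each gene family and for all members, with Wilson 95% intervals as bars and the counts beside the points. The dashed line is the share of all protein-coding genes (5.60%) and the dotted line that of genes with CpG-rich promoter windows (10.5%). The interval of the Hnrnp genes lies above both lines.

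Members share a kind of promoter with many widely expressed genes. In the RefSeq promoter windows, which run from 250 bases before to 50 after a start, the 97 members present in that table had a median of 24 CpG dinucleotides per window, against 13 over all protein-coding genes. Among genes with at least 19 CpG in a window, a limit set after the values were seen, the share with a Ctrl PHF2 peak at an end was 10.5% (756 of 7191) over all protein-coding genes. Within the same limit it was 8 of 16 for hnRNP genes (interval 28.0 to 72.0%) and 8 of 61 for the other members (13.1%, 6.80 to 23.8). The interval of the members outside the hnRNP family included the 10.5%, and that of the hnRNP genes lay above it. The limit is only a minimum and does not match genes by CpG number, and the part of CpG number in these shares was not tested. Expression was not measured here, and the part of gene activity in these shares was not tested.

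The A/B group of hnRNPs, abundant nuclear proteins that coat nascent transcripts, had 3 of 5 genes at a peak. Hnrnpa2b1 (Gene ID 53379) encodes a splicing and RNA transport factor, and its Ctrl peak led all members in fold enrichment at 9.78, on 21 tags (13.0 to 32.1). The peak, chr6:51468768-51469763, was also the widest of the members at 996 bp, and it ranked 104 of 1621 Ctrl peaks by fold. Hnrnpa3 had a 304-bp peak with 14 tags (7.65 to 23.5) and a fold enrichment of 7.16 at chr2:75659697-75660000. Hnrnpa0, whose product binds AU-rich RNA, had 4.40 with 12 tags (6.20 to 21.0) at chr13:58129130-58129620, near the lower limit of the list. Hnrnpa1 and Hnrnpa1l2-ps2, the other genes of the group, had no peak in any list.

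The D group, regulators of mRNA stability, held a peak at all 3 of its genes. Hnrnpd, which encodes AUF1, had a 709-bp peak with 21 tags (13.0 to 32.1) and a fold enrichment of only 4.88 at chr5:99978330-99979038. As many tags thus gave fold enrichments of 4.88 at Hnrnpd and 9.78 at Hnrnpa2b1, because the background that the caller used differed between these sites. Hnrnpdl lies 54446 bp from Hnrnpd on chromosome 5 and had its own peak, inside the gene, at 6.15 with 19 tags (11.4 to 29.7). Hnrnpab had 4.40 with 12 tags (6.20 to 21.0). The 2 neighbours on chromosome 5 were therefore both at a peak, as were Hnrnpa0 and Hnrnpk, which are 262575 bp apart on chromosome 13. No other pair of neighbouring members lying that close was both at a peak. Ddx19a and Ddx19b, 5362 bp apart, and Ddx21 and Ddx50, 13493 bp apart, had no Ctrl peak. Of Hnrnpll and Srsf7, 137811 bp apart, only Hnrnpll had a peak.

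Other hnRNP groups were represented by 1 or 2 genes each. Hnrnpu encodes a scaffold attachment factor that links RNA to chromatin. Its peak inside the gene, chr1:178336787-178337684, had the most tags of any member, 26 (17.0 to 38.1), at a fold enrichment of 5.96. Hnrnpul2, of the same group, had 6.02 with 17 tags (9.90 to 27.2), and Hnrnpul1 had no peak. Hnrnpc, whose product binds uridine tracts in nascent RNA, had 6.94 with 13 tags (6.92 to 22.2). In the F/H group, which binds G-rich RNA, Hnrnpf had 5.96 with 13 tags and Hnrnph3 had 5.66 with 12 tags, while Hnrnph1 and Hnrnph2 had none. Hnrnpk, a poly(C)-binding KH-domain protein gene, had 2 peaks, at 5.25 with 16 tags and at 4.72 with 13 tags. Hnrnpll, known as a splicing regulator in lymphocytes, had the lowest fold enrichment of the members, 4.01 with 17 tags (9.90 to 27.2). Hnrnpl, Hnrnpm and Hnrnpr had no peak. The tag intervals of all these peaks overlap, so no order among the hnRNP genes follows from the tags.

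SR proteins act on many of the same transcripts. Srsf2 had a peak at an end, chr11:116852384-116852898, with a fold enrichment of 5.73 and 15 tags (8.40 to 24.7). Srsf9 had 5.50 with 10 tags (4.80 to 18.4) at chr5:115327045-115327360. Srsf1, a founding SR protein gene, had a peak inside the gene at 4.65 with 14 tags (7.65 to 23.5). The other 8 Srsf genes, among them Srsf10, Srsf11, Srsf12 and Srsf3, had no peak in any list.

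The snRNP and core spliceosome families (Sf3a, Sf3b, Prpf, Snrnp and Snrp) together had 4 of 41 genes at a peak (9.76%, 3.86 to 22.5), an interval that includes the 5.60% of all genes. Sf3b1, the SF3b subunit that holds the branch site, had the highest fold enrichment of these, 7.79 with 15 tags (8.40 to 24.7), at chr1:55026774-55027300. Sf3b2, Sf3b3, Sf3b4 and Sf3b5 had no peak, and neither did Sf3b6, Sf3a1, Sf3a2 or Sf3a3. Prpf39, a U1 snRNP protein gene, had 7.41 with 14 tags (7.65 to 23.5) at chr12:65036361-65036715, and Prpf38b had 5.05 with 14 tags at chr3:108910970-108911701. Among the Sm core genes Snrpe alone had a peak, at 7.41 with 14 tags, chr1:133609895-133610242. Prpf39 and Snrpe have the same fold enrichment because both summits held 14 tags over the same background. The U4/U6.U5 genes Prpf3, Prpf4, Prpf6, Prpf8 and Prpf31 had none, nor did Snrnp200, Snrnp25, Snrnp27, Snrnp35, Snrnp40, Snrnp48 and Snrnp70.

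Among the DEAD-box helicases, Ddx39a, a paralogue of the mRNA export helicase gene Ddx39b, had the second highest fold enrichment of all members, 9.24, from a 322-bp peak holding 21 tags (13.0 to 32.1) at chr8:83715234-83715555. Ddx39b had no peak. Ddx3x, an X-linked translation helicase gene, had 2 peaks, at 8.37 with 16 tags (9.15 to 26.0) and at 4.72 with 13 tags (6.92 to 22.2). Its Y-linked paralogue Ddx3y had none. Ddx54, a nucleolar helicase gene of ribosome biogenesis, also had 2 peaks, at 6.94 with 13 tags and at 4.96 with 9 tags (4.12 to 17.1), the fewest among the members. Ddx6, whose product represses translation and promotes decay in processing bodies, had 4.65 with 14 tags (7.65 to 23.5). By role, assigned from textbook knowledge after the values were seen, peaks lay at 2 of 5 genes of translation and decay, 1 of 8 of mRNA splicing and export and 1 of 13 of ribosome biogenesis. The 3 germline genes and the 2 RNA-sensing genes, Ddx58 and Ddx60, had 0.

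The 27 peaks at members lay within the range of the whole Ctrl PHF2 list. Their median fold enrichment was 5.73, against 6.37 for all 1621 peaks, and their median tag number 14 against 15. Widths ran from 292 to 996 bp with a median of 470 bp, against a median of 505 bp and a maximum of 4393 bp over the list. In the whole list 256 peaks were wider than 1000 bp, and at members 0 were. The peaks at Hnrnpa2b1 and Ddx39a, 2 of the 27, were among the 161 of the 1621 Ctrl peaks with the highest fold enrichment, a share near that of the list.

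**Figure D2:**
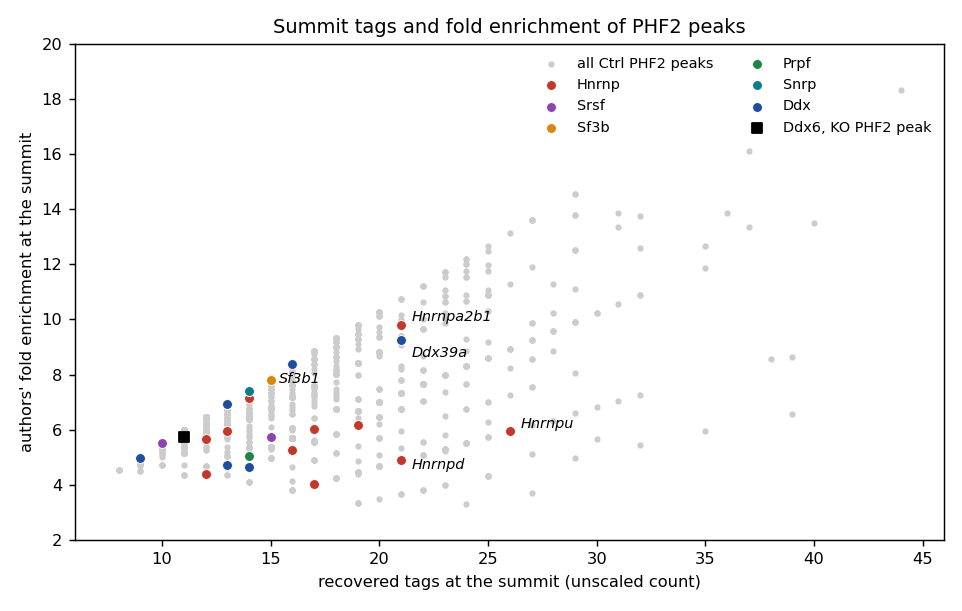
Authors' fold enrichment (vertical axis) against recovered tags at the summit (horizontal axis) for the 1576 Ctrl PHF2 peaks with a single solution (grey), the 27 peaks at members (coloured by family) and the KO PHF2 peak inside Ddx6 (black square). Points with equal values overlap, and the members lie at or below 26 tags while the list reaches 44.

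Peaks at members lay around the start of the gene, as peaks at other genes did. Where the promoter table gives a start, all 19 pairs of a member and a gene-end peak lay within 1 kb of a RefSeq start, against 994 of 1052 such pairs over all protein-coding genes (94.5%). Of the 19 summits, 14 (73.7%, Wilson interval 51.2 to 88.2) were downstream of the start, against 71.5% over all genes, and the median was 223 bp downstream, against 210 bp. At Hnrnpab the summit was 650 bp downstream, at Hnrnpa2b1 639 bp, at Hnrnpa3 572 bp, at Srsf2 518 bp, at Sf3b1 515 bp and at Hnrnph3 453 bp. At Snrpe it was 223 bp, at Prpf39 168 bp and at Hnrnpc 154 bp. The 5 summits upstream were those of Hnrnpa0, at -627 bp from its start, both summits at Hnrnpk and 1 each of the 2 at Ddx3x and Ddx54.

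The 4 peaks counted as inside a gene were also near a RefSeq start. Their summits lay 329 bp (Hnrnpu), 494 bp (Hnrnpdl), 495 bp (Hnrnpf) and 825 bp (Srsf1) downstream of the nearest start in the table, because the outermost gene model reaches further than that start. The nearest edge of the Hnrnpdl peak was 1058 bp from the gene end, just outside the limit of 1 kb, and that of the Ddx6 peak 924 bp, just inside it. Counted by RefSeq starts alone, 20 of the 97 members in the table (20.6%, 13.8 to 29.7) and 11 of the 19 hnRNP genes in it (57.9%, 36.3 to 76.9) had a peak within 1 kb, against 6.42% of all protein-coding genes there.

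**Figure D3:**
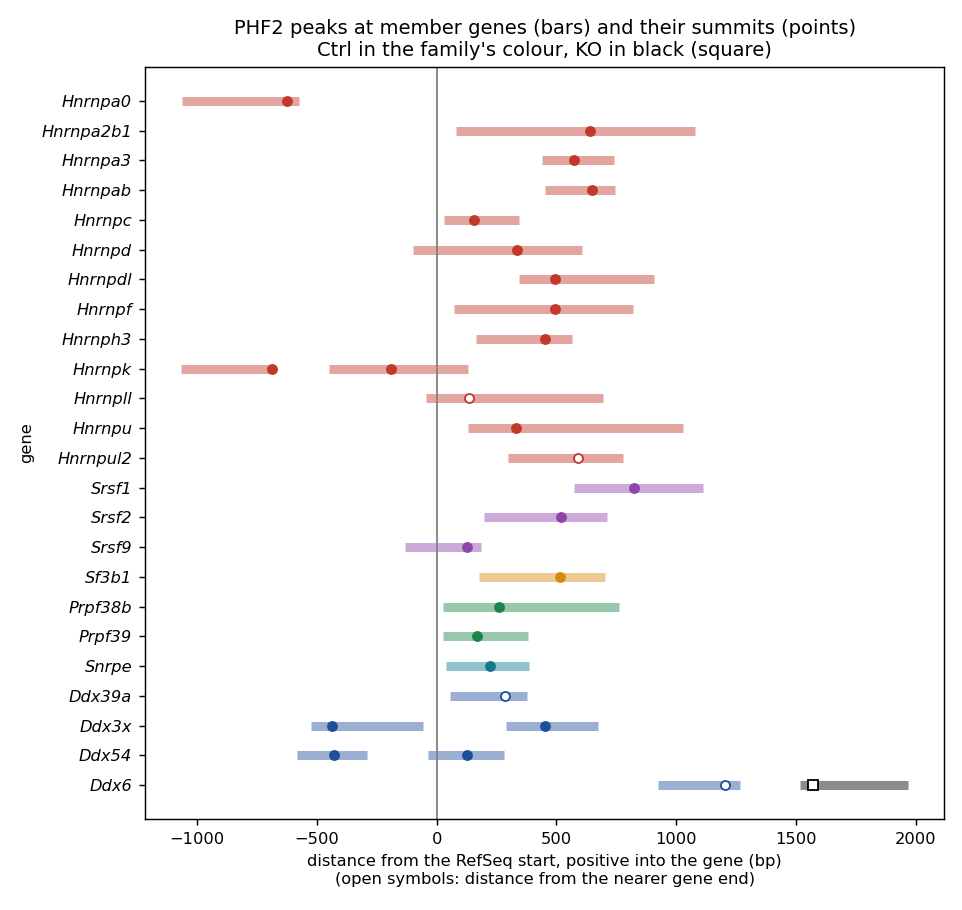
PHF2 peaks (bars) and summits (points) at the 24 members with a peak, by distance in bp from the nearest RefSeq start (horizontal axis, positive into the gene). Open symbols give the distance from the nearer gene end for Hnrnpll, Hnrnpul2, Ddx39a and Ddx6. Most Ctrl summits lie downstream of the start, and the single KO peak (black, Ddx6) lies further into the gene than the Ctrl peak beside it.

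The promoter windows printed here were picked from those that a Ctrl PHF2 peak reaches, so they do not show the usual coverage. At Hnrnpa0, Hnrnpa2b1, Hnrnpa3, Hnrnpab, Hnrnph3, Sf3b1 and Srsf2, which also had a peak at an end, no base of the window was covered. The printed sequences are RefSeq promoter windows of GRCm38.p6, given 5′ to 3′ on the strand of the gene, with the bases that a Ctrl PHF2 peak covers in capitals. The first 6 were taken in order of the member's highest fold enrichment, 1 for each family or shared promoter with any peak reaching the window, and Hnrnpk was added after its values were seen because its whole window lies under a peak. At Prpf39, Snrpe and Hnrnpc the peak reached only 23, 12 and 19 of the 300 bases, at the downstream edge. At Ddx54 it covered 86, at Srsf9 182 and at Ddx3x 193 bases, the last under the weaker of its 2 peaks (4.72), while its peak at 8.37 lies beyond the window.
Ddx3x, chrX:13280772-13281071, plus strand: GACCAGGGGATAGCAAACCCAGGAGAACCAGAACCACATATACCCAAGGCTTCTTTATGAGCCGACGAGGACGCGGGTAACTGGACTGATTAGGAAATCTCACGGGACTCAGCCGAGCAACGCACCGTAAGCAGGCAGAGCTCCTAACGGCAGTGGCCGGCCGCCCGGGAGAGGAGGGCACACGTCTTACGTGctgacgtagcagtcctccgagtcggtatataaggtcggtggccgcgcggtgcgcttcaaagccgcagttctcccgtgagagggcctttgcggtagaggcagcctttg
Prpf39, chr12:65036084-65036383, plus strand: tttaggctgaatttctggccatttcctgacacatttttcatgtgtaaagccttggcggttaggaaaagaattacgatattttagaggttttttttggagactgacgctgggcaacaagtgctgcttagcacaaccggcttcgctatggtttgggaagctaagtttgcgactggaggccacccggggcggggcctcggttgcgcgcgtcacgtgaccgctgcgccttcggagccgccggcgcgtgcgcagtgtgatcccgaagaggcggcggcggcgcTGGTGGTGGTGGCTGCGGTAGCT
Snrpe, chr1:133610231-133610530, minus strand: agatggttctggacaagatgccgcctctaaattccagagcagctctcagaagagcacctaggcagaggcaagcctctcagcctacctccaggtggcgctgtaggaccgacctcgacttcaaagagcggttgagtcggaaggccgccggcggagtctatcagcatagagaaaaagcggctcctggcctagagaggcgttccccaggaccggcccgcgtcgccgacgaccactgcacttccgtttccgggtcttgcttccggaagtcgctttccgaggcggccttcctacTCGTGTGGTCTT
Ddx54, chr5:120612880-120613179, plus strand: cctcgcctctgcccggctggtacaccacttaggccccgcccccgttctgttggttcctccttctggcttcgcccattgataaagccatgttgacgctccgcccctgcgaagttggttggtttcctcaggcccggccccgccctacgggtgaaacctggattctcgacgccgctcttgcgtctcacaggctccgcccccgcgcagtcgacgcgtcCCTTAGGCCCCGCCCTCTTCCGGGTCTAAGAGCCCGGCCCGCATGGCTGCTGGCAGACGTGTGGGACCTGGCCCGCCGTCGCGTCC
Hnrnpc, chr14:52103972-52104271, minus strand: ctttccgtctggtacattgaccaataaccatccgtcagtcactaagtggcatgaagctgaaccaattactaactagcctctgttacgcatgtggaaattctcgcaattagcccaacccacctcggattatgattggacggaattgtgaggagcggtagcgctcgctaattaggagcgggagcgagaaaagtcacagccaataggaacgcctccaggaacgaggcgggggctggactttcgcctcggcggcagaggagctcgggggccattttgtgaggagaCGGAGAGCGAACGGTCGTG
Srsf9, chr5:115326927-115327226, plus strand: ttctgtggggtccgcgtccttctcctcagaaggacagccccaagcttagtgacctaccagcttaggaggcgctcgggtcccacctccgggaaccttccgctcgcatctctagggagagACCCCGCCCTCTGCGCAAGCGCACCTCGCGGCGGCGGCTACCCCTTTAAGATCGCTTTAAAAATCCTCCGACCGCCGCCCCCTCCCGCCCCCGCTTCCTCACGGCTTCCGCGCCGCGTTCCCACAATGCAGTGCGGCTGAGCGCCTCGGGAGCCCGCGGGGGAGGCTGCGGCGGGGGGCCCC
Hnrnpk, chr13:58402068-58402367, minus strand: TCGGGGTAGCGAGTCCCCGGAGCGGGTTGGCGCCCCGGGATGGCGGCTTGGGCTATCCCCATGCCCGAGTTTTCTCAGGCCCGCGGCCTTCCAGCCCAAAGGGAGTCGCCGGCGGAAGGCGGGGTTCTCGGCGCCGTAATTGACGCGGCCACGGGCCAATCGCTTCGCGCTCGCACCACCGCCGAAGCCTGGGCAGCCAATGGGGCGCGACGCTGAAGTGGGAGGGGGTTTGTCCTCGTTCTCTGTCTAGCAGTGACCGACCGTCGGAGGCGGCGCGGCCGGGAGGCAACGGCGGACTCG

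These windows are rich in CpG, with 40 at Hnrnpk, 32 at Srsf9, 30 at Ddx54, 27 at Prpf39, 25 at Ddx3x, 24 at Snrpe and 22 at Hnrnpc. Motifs were searched as exact letters on both strands of all windows. GGGCGG, the GC box, stands at Ddx54 5 times, at Srsf9 3 times and at Ddx3x and Prpf39 once each, CCAAT at Hnrnpc 4 times and at Hnrnpk 2 times, and CACGTG at Prpf39. The ETS core CCGGAAG occurs at Ddx54 and, in 2 overlapping copies on opposite strands just after the start, at Snrpe. A match describes the letters and is not a bound site.

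Over the 124 windows of members, CCGGAAG was found in 39 (31.5%), against 11.6% of the 21262 windows of all protein-coding genes. It was found in 3 of the 17 windows of members with a Ctrl PHF2 peak at an end (17.6%) and in 36 of the 107 windows of members without one (33.6%), against 12.9% and 11.5% over all protein-coding genes. By family it stood in all 3 Sf3a windows and 4 of 5 Sf3b windows, but in 4 of 28 Hnrnp windows (14.3%). GGGCGG was present in 12 of the 17 windows of members with such a peak (70.6%) and 66 of the 107 of members without (61.7%). Over all protein-coding genes it was in 68.2% of windows of genes with a peak and 44.8% of those without, so its share in members with a peak is near that of any gene with a peak. CCAAT stood in 52.9% of the windows of members with a peak and 45.8% of those of members without, against 35.9% and 38.3% over all genes. CACGTG stood in 17.6% and 11.2%, against 8.15% and 7.82%, and TATAAA in 11.8% and 11.2%, against 7.37% and 12.9%. TGACGTCA, the NRF1 palindrome and the CGCG palindrome known as M8 were absent from the 17 windows of members with a peak and present in 7, 2 and 1 of the others. Over all protein-coding genes they stood in 2.23%, 1.33% and 0.673% of windows, at which 17 windows would hold fewer than 1 of each. Members with a peak had a median of 32 CpG per window and those without 24, and over all protein-coding genes the medians were 25 and 12. The split is by gene, so a window of a member with a peak need not lie under it, as at Hnrnpa3 and Sf3b1. In the other group, a window of Hnrnpf had 47 bases under the peak inside that gene. With 17 windows a single one moves a share by several percentage points, and none of these shares was tested.

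Many of the peaks lay near ends of more than 1 gene. Of the 20 members with a Ctrl PHF2 peak at an end, 9 (45.0%, 25.8 to 65.8) had it within 1 kb of an end of another protein-coding gene too. Genes in that position made up 1.44% of all protein-coding genes, or 315 of the 1225 with a peak at an end (25.7%). The 9 members were 7 hnRNP, 1 Srsf and 1 Ddx gene, so 7 of the 10 hnRNP genes at a peak shared it. Being near both ends does not say which gene such a peak belongs to. Members are closely packed in general: 46.4% of them have another protein-coding gene's end within 1 kb of an end of their own, against 24.8% of all protein-coding genes. This held for 10 of the 20 members with a peak and 41 of the 90 without (45.6%).

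The shared peaks differed in which gene they touched. At Hnrnpk the peaks lay over the region where Hnrnpk and Rmi1, a DNA repair complex gene, overlap by 1096 bp, with the stronger summit at -193 bp from the nearest Hnrnpk start and 62 bp inside Rmi1. At Hnrnpd and Hnrnpll the peak also touched the short neighbours 4930524J08Rik and 4933407O12Rik, and at Srsf2 it touched Mfsd11, which overlaps Srsf2 by 1465 bp. Of the 2 peaks near Ddx54 and the Notch regulator gene Rita1, the weaker touched Rita1 and not Ddx54, with its summit at -110 bp from the Rita1 start. The stronger lay inside Ddx54 and did not touch Rita1. The peaks counted for Hnrnpa2b1 with Cbx3 (a heterochromatin protein gene), Hnrnpc with Rpgrip1, Hnrnph3 with Pbld2 and Hnrnpul2 with Ttc9c touched the member and not the neighbour. The summit at Hnrnpa2b1 lay at -1410 bp from the nearest Cbx3 start. The inside peaks of Hnrnpdl and Hnrnpf lay within 1 kb of ends of Enoph1 and 4933440N22Rik. Beside non-coding genes, the peak at Hnrnpa3 lay at an end of the lncRNA gene Gm39859.

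**Figure D4:**
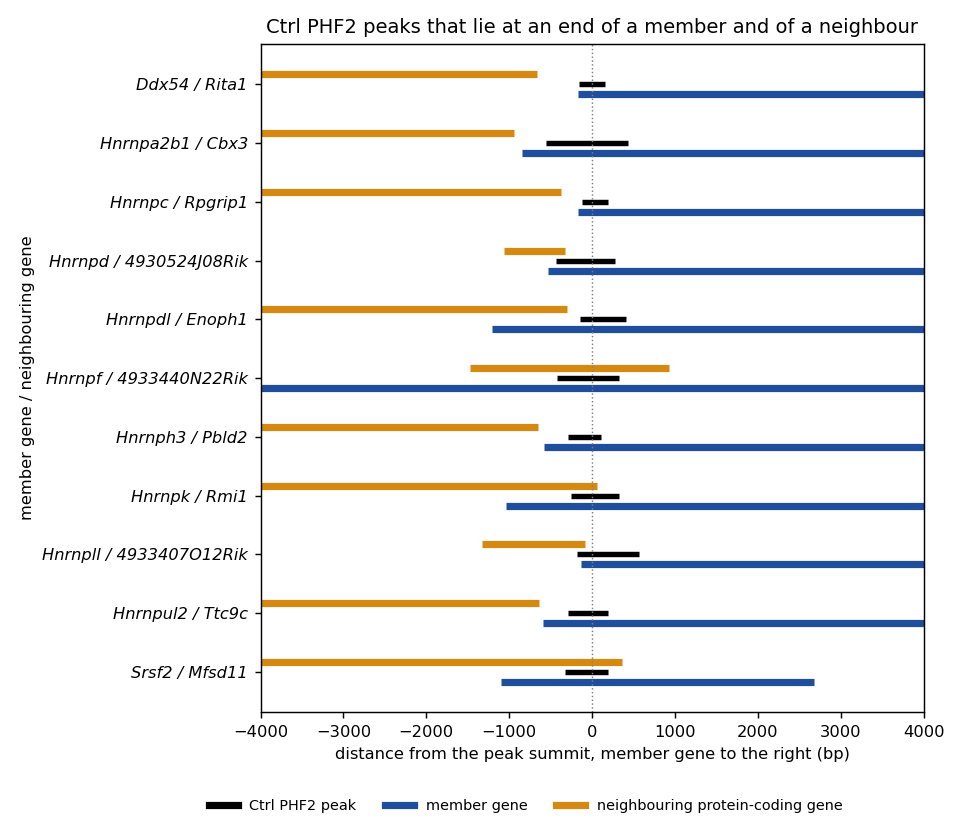
The strongest Ctrl PHF2 peak (black) at each of the 11 members where a peak lies within 1 kb of another protein-coding gene's end, with the member gene (blue) and the neighbour (orange), by distance from the summit in bp. Each row is turned so that the member runs to the right, and genes are cut off at the edges of the plot. All 11 summits lie within the member gene, and the neighbour covers the summit at Hnrnpf, Hnrnpk and Srsf2.

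The Ctrl and KO lists were then compared at these genes. No KO PHF2 peak lay within 1 kb of an end of any member: 0 of 110, which allows a share of up to 2.73%, against 0.484% of all protein-coding genes. At that background fewer than 1 of 110 genes would be at a peak, so the count of 0 says little about these genes. Likewise 0 of the 27 Ctrl peaks at members overlapped a KO PHF2 peak, which allows up to 11.1%, against 114 of 1621 in the whole list (7.03%, 5.89 to 8.38). All 20 members at a peak therefore counted as Ctrl without KO overlap, a state found in 5.23% of all protein-coding genes. Of the 27 peaks, 21 reached the -log10 p of the weakest KO peak, 6.19, as did 1464 of the 1621 in the whole list, and 1 of the 27 had fewer tags than the lowest KO peak, which had 10. KO tags at the member sites are not in the lists, so a loss of signal at any 1 of them was not measured.

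Ddx6 was the only member with a KO PHF2 peak, inside the gene (0.909% of members, against 0.215% of all protein-coding genes). The KO peak, chr9:44604498-44604951, held 11 tags (5.49 to 19.7) for a fold enrichment of 5.73 and began beyond a gap of 249 bp from the Ctrl peak at chr9:44603907-44604248. The Ctrl summit had 14 tags (7.65 to 23.5), and the intervals overlap. Ddx6 thus counts as Ctrl without KO only under the rule that peaks must overlap. Counting peaks within 1 kb of each other as shared gives 1 of 27 (3.70%), against 9.13% of the whole Ctrl PHF2 list under that rule. Every other Ctrl peak at a member lay far from any KO peak, the next nearest being 185804 bp away, at Snrpe.

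In the IgG lists, 0 of 110 members had a peak at an end or inside the gene, in Ctrl or in KO. Peaks within 1 kb of a gene end were found for 0.00457% of all protein-coding genes in Ctrl IgG and 0.0137% in KO IgG, and inside genes only for 0.0503% and 0.110%. No Ctrl PHF2 peak at a member overlapped an IgG peak.

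The other splicing and helicase genes, 123 in a list set apart from the members, had 16 at a Ctrl PHF2 peak at an end. That is 13.0% (8.17 to 20.1), against 5.60% of all protein-coding genes. Genes of the U2 auxiliary factors, the LSm rings and the tri-snRNP and Prp19-associated complexes had 0 of 44, which allows up to 6.82%. That limit includes the 5.60% of all protein-coding genes, so the 0 does not set these genes apart from genes in general. The 22 DEAH and other helicase genes also had 0, with a Wilson interval that reaches 14.9% and so includes that share too. RNA-binding regulators had 12 of 33 (36.4%, 22.2 to 53.4), beside 12 of 32 (37.5%, 22.9 to 54.7) for the Hnrnp and Srsf members. Mbnl2, a muscleblind splicing factor gene, led them with a fold enrichment of 10.8 and 21 tags, followed by Celf1 (7.62), Qk (7.32) and Syncrip (6.78), which encodes hnRNP Q. SR kinases and SR-like genes had 3 of 14, Clk1 (5.70), Tra2a (5.03) and Clk3 (4.65), and exon junction genes 1 of 10, Pnn (6.46). Celf2, Mbnl1, Rbfox1 and Srpk2 had Ctrl peaks inside the gene only. In the KO list 2 of the 123 had a peak at an end: Qk, where it overlapped a Ctrl peak, and the translation helicase gene Eif4a1 (5.85 with 13 tags), which had no Ctrl peak.

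Markers of the cell types in the muscle gave no measure of its makeup, since a PHF2 peak is not expression. Of 10 fibre markers, Des had a Ctrl PHF2 peak at an end and Ttn and Pvalb inside the gene. Of 4 satellite cell markers only Cxcr4 had a Ctrl peak at an end, and of 4 endothelial markers only Flt1 and Cdh5. Pax7, Myf5, Vcam1, Pecam1 and Kdr had none. The 3 fibro-adipogenic, 3 immune and 3 Schwann and smooth muscle markers had 0. In all, 4 of 27 markers had a Ctrl peak at an end (14.8%, 5.92 to 32.5), against 5.60% of all protein-coding genes. None of the 27 markers had a KO PHF2 peak, against 0.484% of all protein-coding genes at an end and 0.215% inside only. Among so few genes this 0 says little.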

How the data were processed

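CUT&RUN peak lists of 4 libraries (Ctrl and KO, PHF2 antibody and IgG) were analysed, grouped by their titles. The tools were Bowtie2 and MACS2 and the build mm10, per the submitters' processing notes. The tools' versions and settings, the treatment of duplicates and the control library were not given in the sources used here. Each deposited list is in narrowPeak layout, with the authors' fold enrichment (a ratio), -log10 p and -log10 q at the summit. The deposited score equals 10 times the -log10 q, cut to an integer, and was not used further. Each list's peak names carry the name of a single library.

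Starts were written 1-based. A gene had a peak when any base lay within 1 kb of either end, or else inside the gene, and overlap meant at least 1 bp. Genes came from RefSeq GRCm38.p6 on the autosomes, X and Y. The promoter windows gave strand and start for 97 of 110 members, and the other 13 were not matched. Gene models were not split into exons and introns.

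Tags were solved from MACS2's fold, (pileup + 1) / (background + 1), and its Poisson p. The pileup was whole tags, within 0.005, times 0.649 in Ctrl (309 of 309 pairs of values) and 0.609 in KO (84 of 84). A single solution was found for 1576 of 1621 Ctrl peaks and for all 161 KO peaks. PCR copies may be among the tags. The overlap and tag steps were checked on simulated data. Intervals of shares are Wilson 95% intervals, with 3 counts as the limit for a 0, all for counting error only and treating genes as independent.

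The members, gene lists and alternatives were chosen with earlier results of these data known, so no share is independent support for them. Named genes were all members with a peak, up to 4 members per family without one in symbol order, and up to 4 of the other genes per class by fold enrichment; further members without a peak, Celf2, Mbnl1, Rbfox1, Srpk2, Eif4a1 and the markers were named after their values were seen. Roles of DEAD-box and hnRNP genes were assigned after the values were seen. Alternatives were other windows, the summit alone, stricter q, stronger or shorter Ctrl lists, a common p, other overlap rules, starts alone and neighbours of every type. The CpG limit and the count without Hnrnp genes were alternatives added once the values had been seen. Calculations ran in Python 3.11.15 (pandas 2.3.3, SciPy 1.17.1, NumPy 2.4.6, with plots by matplotlib 3.10.9).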

Additional observations from a re-analysis of the deposited data

How the results depend on the processing

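Of 44 alternatives, 33 stayed near the main value and 11 moved, where near means within 1.5 times for a count or a median and within the main interval for a share. Many of the 33 were IgG or KO results of 0 or near 0, which had little room to move, so the tally does not measure stability. The count of 20 members with a Ctrl PHF2 peak at a gene end became 10 with a -log10 q of at least 5 (9.09%, against 3.14% of all protein-coding genes) and 9 in the stronger 50% of the list (8.18%, against 2.98%). It became 2 with the Ctrl list shortened to the length of the KO list (1.82%, against 0.567%) and 10 of 89 without the Hnrnp genes. The count of 0 members with a KO PHF2 peak became 1, Ddx6, at 2 kb and also 1 at 5 kb. That is 0.909% of members, against 0.562% and 0.631% of all protein-coding genes. The count of 4 members with an inside peak became 1 at 2 kb (0.909%, against 0.850% of all protein-coding genes). With a -log10 q of at least 5 it became 2 (1.82%, against 0.685%). In the stronger 50% of the list and with the shortened list it became 0, against 0.695% and 0.192%. Counts this small say little about the members. With that shortened list the median fold enrichment of member peaks became 9.51, over 2 peaks, against 10.1 for the whole shortened list. That list keeps the peaks with the highest fold enrichment, so both medians had to rise. The count of 9 of 20 members at a shared peak ranged from 7 to 10 over its alternatives. The main share among all protein-coding genes with a peak at an end was 25.7%. With neighbours of every type the count was 10 of 20, against 41.7%, so the contrast with all such genes became smaller. With the summit alone it was 8 of 18, against 24.2%. At 2 kb it was 10 of 23, against 28.3%, and with a limit below 1 kb 7 of 16, against 22.7%. No paired analysis was possible because single libraries stood for each genotype and antibody, and leaving 1 out would have emptied its group. Few tags per summit limit every comparison of single peaks.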
